A study of Mus musculus with 42 samples.

Results

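The 10 genes described here mark the granule cells of the mouse cerebellum: Neurod1, Zic1, Zic2, Etv1, Pax6, Cbln1, Cbln3, Slc17a7, Fat2 and Kndc1. They were taken by symbol from the deposited count tables, which list 35275 genes, and all 10 were found and passed the filter on low counts in every fit. Granule cells are the small, densely packed excitatory neurons of the cerebellar cortex. They receive mossy fibre input in the granular layer and send parallel fibres into the molecular layer, where these release glutamate onto Purkinje cell dendrites. Because granule cells far outnumber the other neurons of the cerebellum, their transcripts make up much of the RNA of the whole tissue.

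RNA was sequenced from flash-frozen cerebellum of male C57BL/6 mice (C57/BL6NTac in the series' design text), in 30 libraries of 6 groups with 5 libraries each. From 3 months of age the AL group ate ad libitum, the IF16 group was fasted for 16 h each day with food from 7 am to 3 pm, and the EOD group was fasted for 24 h on alternate days. These regimens lasted 3 months, and the 3 groups were collected at 6 months of age. The refed groups AL-R, IF16-R and EOD-R (a hyphen stands here for the full stop of the labels) had the same 3 regimens and then 2 months of ad libitum feeding, and were collected at 8 months. All mice had free access to water. The labels name no transgene, and each library carries a replicate number of its group, with nothing further on litter, cage, day of collection or hour since the last meal. Where libraries of a group share such a source, the p-values measure only the spread between these libraries.

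Each library held between 26799825 and 36167435 counts, and the deposited tables hold the 15 libraries collected at 6 months apart from the 15 collected at 8 months. The 10 genes summed to between 1714 and 2066 FPKM (the authors' unit scaled by gene length and library total) over the 30 libraries. Among markers of other cells and regions, 7 Purkinje cell genes summed to between 1249 and 1602 FPKM, 6 forebrain genes to at most 4.25 FPKM and 6 brainstem and deep nuclei genes to at most 2.49 FPKM. Choroid plexus genes varied most, from 14.7 to 3335 FPKM summed over 10 genes, within groups as well as between them. In each library the slope of log2 CPM on log2 gene length was also computed, here called the length gradient and given as a deviation from the mean of its table. AL replicate 4 at -0.16, IF16 replicate 1 at -0.11 and AL replicate 5 at -0.11 had the lowest gradients of the table at 6 months, and EOD replicate 4 at 0.14 the highest. At 8 months the gradients lay between -0.03 and 0.04. The 3 libraries of lowest gradient stand apart, and the fold changes and correlations that rest on them are also given without them. EOD replicate 4 also stands apart, above IF16 replicate 3 at 0.06, and was kept when those 3 were left out.

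Compared per gene length, the 10 genes spanned a 22.8-fold range of mean level over the 30 libraries. Cbln1, a secreted protein of the C1q family that parallel fibres release to organise their synapses with Purkinje cells, stood first at 627.5 FPKM ± 75.2 (SD, n = 30) and ranked 38 among all genes. Cbln3, a cerebellin that is secreted from granule cells together with Cbln1, followed at 336.2 ± 30.9, and Slc17a7, the vesicular glutamate transporter VGLUT1 of parallel fibre terminals, at 299.4 ± 22.7. The lowest Cbln1 library, at 496.3 FPKM, was above the highest Cbln3 library, at 387.5 FPKM, whereas Cbln3 exceeded Slc17a7 in 25 of 30 libraries and their ranges overlapped.

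The 5 transcription factors lay lower. The zinc finger proteins Zic1 and Zic2, which act in granule cell precursors and stay on in mature granule cells, were at 218.2 ± 17.2 and 159.1 ± 9.11 FPKM (SD, n = 30). The basic helix-loop-helix factor Neurod1, needed for granule cell differentiation and survival, was at 106.8 ± 6.03 FPKM, with ranges that overlapped neither Zic2 nor the next gene. Etv1, an ETS factor of granule cell maturation, was at 63.0 ± 11.6 FPKM, and Pax6, a paired-box homeodomain factor of the rhombic lip lineage, was the lowest of the 10 at 27.5 ± 2.04 FPKM. Between them came the atypical cadherin Fat2, which is found on parallel fibres, at 47.8 ± 6.56 FPKM, and Kndc1, a Ras guanine nucleotide exchange factor with KIND domains (also called v-KIND) that acts on dendrites of granule cells, at 37.1 ± 3.25 FPKM. Etv1 exceeded Fat2 in 28 of 30 libraries and Fat2 exceeded Kndc1 in 28 of 30, so neighbours in this part of the order overlapped.

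**Figure D1:**
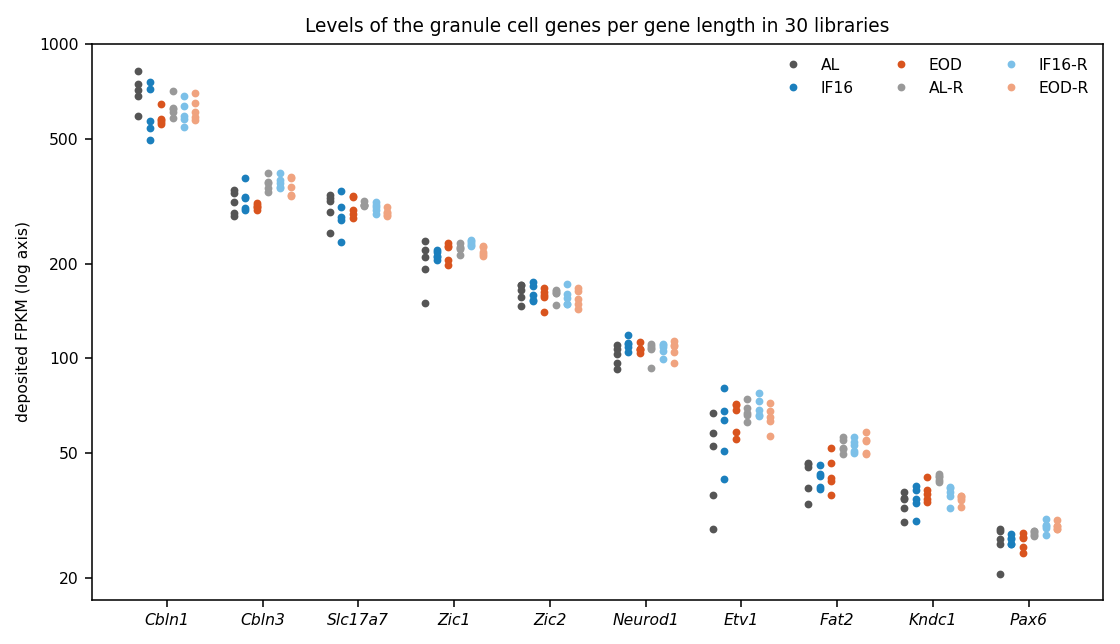
Deposited FPKM (log axis) of the 10 granule cell genes, 1 point per library, coloured by group, with genes ordered by their mean over 30 libraries. Cbln1 lies above every library of Cbln3, and the order runs down to Pax6 at a mean of 27.5 FPKM.

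Positions are those of the deposited tables, whose build is mm10 per the submitters' processing notes. Neurod1 (ENSMUSG00000034701) lies at chr2:79452521-79456751, Zic1 (ENSMUSG00000032368) at chr9:91358058-91365810, Cbln1 (ENSMUSG00000031654) at chr8:87468854-87472592, Cbln3 (ENSMUSG00000040380) at chr14:55878920-55884256 and Fat2 (ENSMUSG00000055333) at chr11:55250609-55336564, all on the minus strand. On the plus strand are Zic2 (ENSMUSG00000061524) at chr14:122475435-122479852, Etv1 (ENSMUSG00000004151) at chr12:38779380-38868215, Slc17a7 (ENSMUSG00000070570) at chr7:45163921-45176138, Pax6 (ENSMUSG00000027168) at chr2:105668900-105697364 and Kndc1 (ENSMUSG00000066129) at chr7:139894696-139941537. All 10 are annotated as protein coding. For 3 of them the span overlaps another gene, and the handling of strand in counting is not given in the sources used here, so reads of such neighbours may be shared. Zic1 overlaps Zic4 on the opposite strand, whose count summed over the 30 libraries was 4.41% of that of Zic1. Neurod1 overlaps Cerkl on its own strand, at 2.32% of its count, and Gm26755 on the opposite strand at 0.154%. Pax6 overlaps its antisense gene Pax6os1, at 1.03% of its count.

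The RefSeq promoter table (GRCm38.p6) held windows for 8 of the 10 genes, and none for Cbln1 and Zic2. The windows of Kndc1, Slc17a7 and Pax6 are printed because these are the 3 genes whose libraries in a refed group lay clear of the AL-R controls, as given further on. Each runs over the 250 bases before the RefSeq start on the plus strand. Those of Kndc1 (chr7:139894446-139894695) and Slc17a7 (chr7:45163671-45163920) end at the base before the deposited gene start, and that of Pax6 (chr2:105668646-105668895) ends 4 bases short of it. Capitals mark the E-box letters CANNTG, which basic helix-loop-helix factors such as Neurod1 can bind.
Kndc1: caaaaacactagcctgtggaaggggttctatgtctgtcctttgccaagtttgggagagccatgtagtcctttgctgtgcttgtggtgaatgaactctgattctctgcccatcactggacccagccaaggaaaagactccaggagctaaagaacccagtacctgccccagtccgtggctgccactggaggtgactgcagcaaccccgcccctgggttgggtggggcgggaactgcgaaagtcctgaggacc
Slc17a7: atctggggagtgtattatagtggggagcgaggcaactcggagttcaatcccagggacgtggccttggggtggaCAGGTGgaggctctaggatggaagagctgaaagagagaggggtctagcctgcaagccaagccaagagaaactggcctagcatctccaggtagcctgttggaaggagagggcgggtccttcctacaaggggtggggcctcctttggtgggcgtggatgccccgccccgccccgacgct
Pax6: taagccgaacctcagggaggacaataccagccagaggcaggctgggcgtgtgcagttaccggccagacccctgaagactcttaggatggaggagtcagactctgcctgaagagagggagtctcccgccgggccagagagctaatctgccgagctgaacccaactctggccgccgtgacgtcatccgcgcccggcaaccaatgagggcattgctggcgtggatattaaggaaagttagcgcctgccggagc
The Slc17a7 window held 1 match, CAGGTG, starting 177 bases before the start, and the printed windows of Kndc1 and Pax6 held none. A further Pax6 window in the table (chr2:105682213-105682462), at a start 13563 bases from the deposited one and not printed, held 1 match, CAAATG. Searched on both strands, CANNTG was present in 7 of 10 windows of the granule cell genes and in 66.2% of all 32851 windows of that length. Its narrower forms CAGCTG and CAGATG were in 0 and 1 of the 10 windows, against 13.0% and 14.4% of all. TTGGCA, the half-site of nuclear factor I proteins, was in 3 of 10 windows, those of Kndc1, Cbln3 and 1 of the 2 Etv1 windows, against 12.3% of all, and TATAAA was in 1 of 10 against 12.4%. These are matches of letters and not measured sites. The printed windows also differed in composition, with 4 CG dinucleotides in that of Kndc1, 9 in that of Slc17a7 and 15 in that of Pax6.

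At the end of the regimens none of the 10 granule cell genes differed from ad libitum controls beyond the spread between libraries. In IF16 against AL, 0 of 10 passed edgeR's quasi-likelihood test with Benjamini-Hochberg adjustment (adjusted p below 0.05, a call in what follows), where 0.0483% of 16577 genes were called, and 0 of 10 had an unadjusted p under 0.05, against 9.92% of all genes. In EOD against AL, 0 of 10 were called, where 0.0664% of genes were called, and 2 of 10 had an unadjusted p under 0.05, against 14.4% of all. EOD and IF16 against each other gave 0 of 10, with 0.0% of all genes called, and 0 of 10 at an unadjusted p under 0.05 against 3.62% of all. DESeq2 also called none of the 10 in these 3 comparisons. Groups free of overlap were found for 0 of the 10 genes in each, against 1.55% of all genes in IF16 against AL, 2.9% in EOD against AL and 0.688% in EOD against IF16. Both regimens were compared with the same 5 AL libraries. In whole tissue, fewer granule cells and less RNA of a gene per cell cannot be told apart.

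The median log2 fold change of the 10 genes was 0.03 in IF16 against AL, where the median of all genes was -0.01, and 0.04 in EOD against AL, where it was -0.02. The fold changes ran from -0.22 for Cbln1 to 0.32 for Etv1 in IF16 and from -0.28 for Cbln1 to 0.44 for Etv1 in EOD. Their standard errors ran from 0.05 to 0.20, so the precision differed by gene. For Zic2 the estimates were -0.01 (SE 0.07) and -0.03 (SE 0.07), and for Pax6 0.02 (SE 0.07) in both regimens.

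Etv1 had the widest fold changes of the 10 and the widest spread. Its level in the AL libraries was 284.4, 247.6, 226.3, 127.1 and 160.3 CPM (counts scaled to library size, with TMM factors computed over all 30 libraries, replicates 1 to 5). In IF16 it was 177.3, 218.5, 337.4, 275.1 and 295.8 CPM, and in EOD 293.9, 310.2, 251.0, 317.1 and 242.7 CPM. AL replicates 4 and 5 and IF16 replicate 1, the 3 libraries of lowest length gradient, were the 3 lowest of the 15, and the groups overlapped. In IF16 the log2 fold change against AL was 0.32 (SE 0.20, edgeR adjusted p = 0.575), and without those 3 libraries, an alternative chosen after seeing the data, 0.16 (SE 0.13, edgeR adjusted p = 0.859). Against a mean of 209.1 CPM ± 64.3 (SD, n = 5) in AL, the EOD mean was 283.0 ± 34.2, a log2 fold change of 0.44 (SE 0.20, edgeR adjusted p = 0.337). Without the 3 libraries it was 0.16 (SE 0.13, edgeR adjusted p = 0.868), and with the length gradient as a covariate 0.12 (SE 0.07, edgeR adjusted p = 0.678).

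Cbln1 ran the other way. Its AL libraries held 1358, 1658, 1588, 1781 and 1945 CPM, the IF16 libraries 1755, 1679, 1124, 1260 and 1338, and the EOD libraries 1324, 1305, 1317, 1399 and 1524. AL replicate 1 fell within the EOD range and the other 4 AL libraries lay above every EOD library. The EOD mean of 1374 CPM ± 91.5 against 1666 ± 218.9 in AL gave a log2 fold change of -0.28 (SE 0.12, edgeR adjusted p = 0.329). Without the 3 libraries of lowest gradient it was -0.16 (SE 0.11, edgeR adjusted p = 0.813). In IF16 it was -0.22 (SE 0.12, edgeR adjusted p = 0.55), and -0.19 (SE 0.11) without those libraries.

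Levels of several of these genes moved with the length gradient from library to library at 6 months. For Etv1 across the 15 libraries, Pearson's r was 0.952 (permutation p = 1e-05, the smallest that 100000 resamples can give) and Spearman's rho 0.954 (permutation p = 1e-05), with adjusted p = 0.0002 for both over 20 relations (permutation test). Leaving out AL replicate 4 and EOD replicate 4, whose gradients lay farthest from the median, gave r = 0.963, and leaving out the 3 lowest gave 0.843. Cbln1 moved against the gradient, with r = -0.775 (permutation p = 0.00057, adjusted p = 0.0038), rho = -0.732 (permutation p = 0.0025), r = -0.86 without the 2 farthest and r = -0.491 without the 3 lowest. Kndc1 had r = 0.822 (permutation p = 0.00027, adjusted p = 0.0027), rho = 0.707 (permutation p = 0.0045), r = 0.653 without the 2 farthest and r = 0.649 without the 3 lowest. The relations of Zic1 and Fat2, with r = 0.745 (permutation p = 0.00087, adjusted p = 0.0043; rho = 0.661, permutation p = 0.0088) and 0.706 (permutation p = 0.0034, adjusted p = 0.011; rho = 0.564, permutation p = 0.031), fell to 0.478 and 0.377 without the 2 farthest libraries and rest largely on them, and stood at 0.538 and 0.52 without the 3 lowest. For the other 5 genes the adjusted p lay at 0.057 or above.

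After refeeding, Zic1 was the 1 gene of the 10 with such a relation past the threshold, with r = 0.717 (permutation p = 0.0024, adjusted p = 0.0098), rho = 0.768 (permutation p = 0.0014) and r = 0.627 without the 2 farthest libraries, IF16-R replicates 3 and 5. Etv1 had r = 0.567 there (permutation p = 0.028, adjusted p = 0.071; rho = 0.539, permutation p = 0.041), and Kndc1 r = -0.174 (permutation p = 0.53; rho = -0.046, permutation p = 0.87). All 5 IF16-R libraries had higher gradients, from 0.005 to 0.04, than the 5 AL-R libraries, from -0.03 to -0.004. Gradient and group therefore go together in IF16-R against AL-R. The part of the gradient in the differences between these groups was tested only through the covariate fit, which cannot separate the 2. In that fit Kndc1 in IF16-R against AL-R was at -0.16 (SE 0.06, edgeR adjusted p = 0.999). Over all genes 0 were called there in place of 28. The gradient was computed over all genes tested; leaving the 10 genes out of it gave the same r for Etv1 at 6 months, 0.952.

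**Figure D2:**
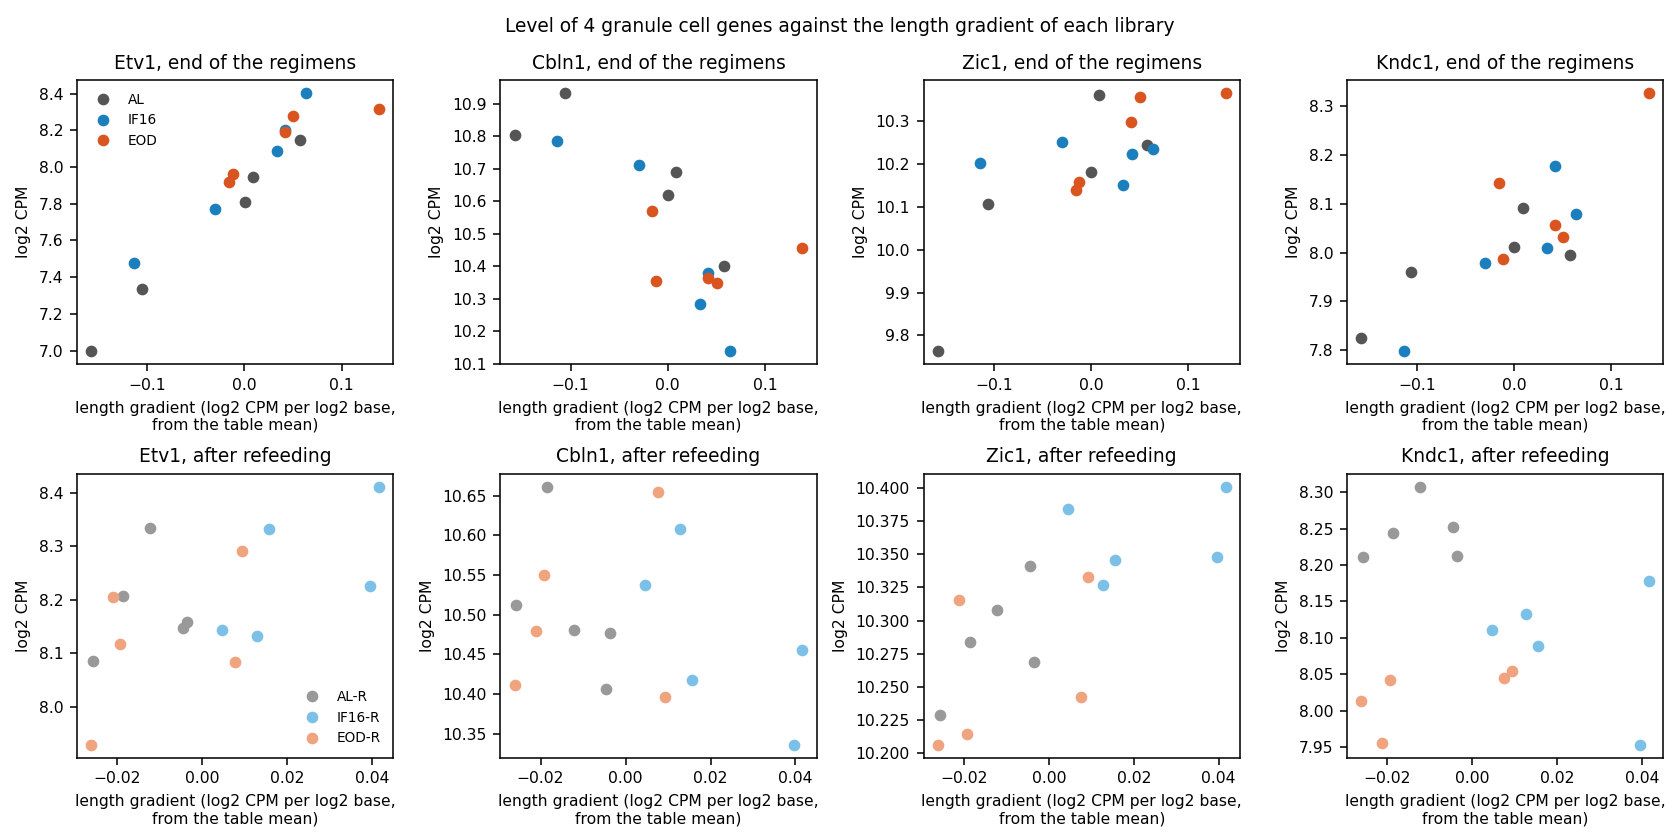
Log2 CPM of Etv1, Cbln1, Zic1 and Kndc1 (y axes) against the length gradient of each library (x axes), 1 point per library, at the end of the regimens (top) and after refeeding (bottom). Etv1 follows the gradient at 6 months with r = 0.952, and after refeeding the AL-R libraries lie above the others for Kndc1.

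The remaining genes stayed closer together at 6 months. Neurod1 was the most even of the 10 at that time, with a within-group SD of 0.06 on the log2 CPM scale, lower than in all but 5.28% of 4811 genes at 50 CPM or more. Its levels were 279.2 CPM ± 16.7 (SD, n = 5) in AL, 301.7 ± 10.8 in IF16 and 296.3 ± 10.1 in EOD, and its log2 fold change in IF16 was 0.11 (SE 0.05, edgeR adjusted p = 0.512). Etv1, with an SD of 0.36, was more variable than 98.7% of those genes. Slc17a7 had log2 fold changes of -0.09 (SE 0.11) in IF16 and 0.01 (SE 0.11) in EOD, and Cbln3 0.04 (SE 0.07) and -0.03 (SE 0.07). Fat2 stood at -0.02 (SE 0.10) and 0.06 (SE 0.10), Zic1 at 0.07 (SE 0.09) and 0.12 (SE 0.09), and Kndc1 at 0.04 (SE 0.08) and 0.13 (SE 0.08), none of them past the threshold. Without the 3 libraries of lowest gradient the signs turned for Zic1, at -0.05 (SE 0.07) in IF16 and -0.004 (SE 0.07) in EOD, for Pax6, at -0.06 (SE 0.06) and -0.07 (SE 0.06), and for Fat2 in EOD, at -0.05 (SE 0.10). None of the 10 genes was called in that fit either.

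**Figure D3:**
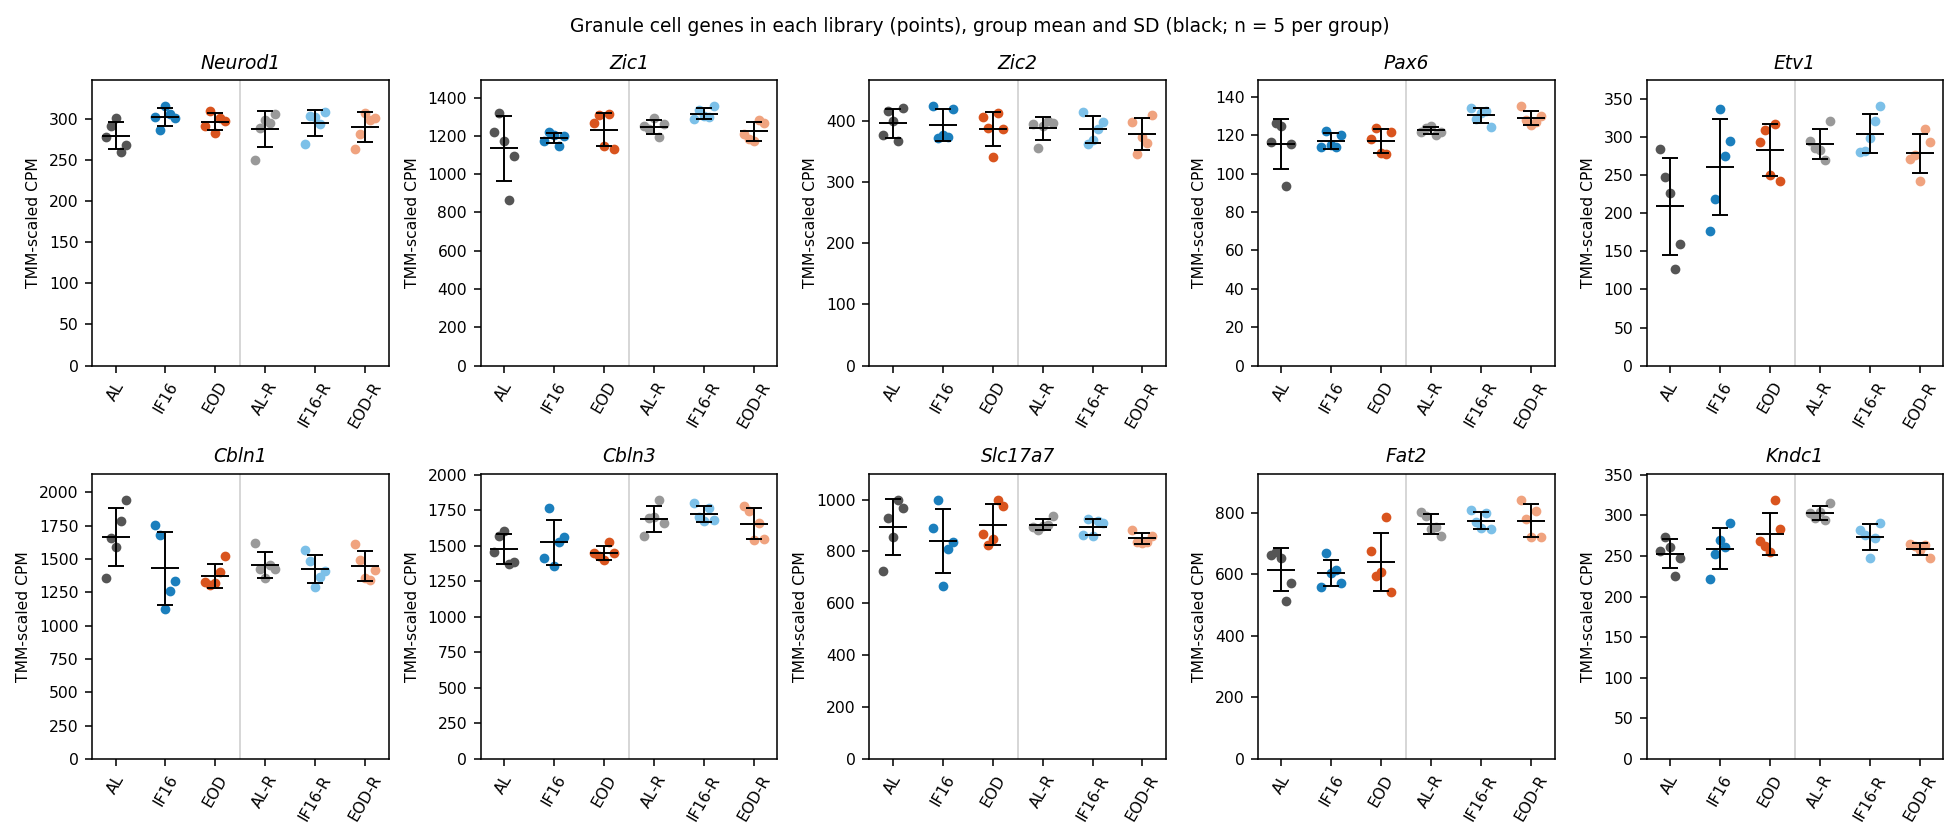
TMM-scaled CPM of each granule cell gene (y axes, from 0) in each library, by group, with the group mean and SD in black (n = 5). Kndc1 in AL-R, from 294.8 to 315.7 CPM, lies above all libraries of IF16-R and EOD-R, and Etv1 spreads most in AL and IF16.

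After 2 months of refeeding 1 of the 10 genes, Kndc1, was lower in EOD-R than in AL-R. Of all 16444 genes 0.0426% were called in this comparison, and 3 of the 10 had an unadjusted p under 0.05 against 8.5% of all. Kndc1 in the AL-R libraries was at 303.5, 296.5, 304.4, 294.8 and 315.7 CPM. In EOD-R it was at 264.4, 262.6, 256.9, 263.9 and 246.9 CPM, so that the highest EOD-R library lay below the lowest AL-R library. The means of 258.9 CPM ± 7.35 (SD, n = 5) and 303.0 ± 8.24 gave a log2 fold change of -0.22 (SE 0.04, edgeR adjusted p = 0.0427), a level 14.3% lower in EOD-R than in AL-R. The call was lost in 9 of the 10 fits that left out 1 library (each of the 5 AL-R libraries and EOD-R replicates 2, 3, 4 and 5), with log2 fold changes from -0.23 to -0.21 and adjusted p from 0.0477 to 0.163. It was kept in 7 of 8 other alternatives and lost with the length gradient as a covariate, at -0.22 (edgeR adjusted p = 0.0644).

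Kndc1 also lay lower in IF16-R, at 281.6, 275.6, 247.7, 271.6 and 290.0 CPM, again with no overlap with AL-R. The mean of 273.3 CPM ± 15.9 gave a log2 fold change of -0.15 (SE 0.04, edgeR adjusted p = 0.17), which did not pass the threshold with edgeR and passed it with DESeq2, at an adjusted p of 0.0378. In IF16-R against AL-R, 0 of the 10 genes were called by edgeR, where 0.17% of genes were called, and 3 of 10 had an unadjusted p under 0.05 against 9.58% of all. EOD-R and IF16-R share the AL-R controls. Between the refed groups themselves the Kndc1 difference was -0.07 (SE 0.04, edgeR adjusted p = 0.581), and 0 of 10 genes were called, where 0.0182% of genes were called. At an unadjusted p under 0.05 stood 2 of the 10, Zic1 and Slc17a7, against 9.75% of all, and 0 of 10 were free of overlap, against 1.26% of all.

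At 6 months Kndc1 was not lower under either regimen. The AL libraries were at 256.2, 273.6, 260.6, 225.8 and 247.8 CPM, the IF16 libraries at 221.3, 252.7, 269.8, 260.5 and 290.6, and the EOD libraries at 267.8, 261.7, 255.0, 319.4 and 283.1. The difference from controls thus had opposite signs at the end of the EOD regimen and after refeeding. In the joint fit of all 30 libraries the difference between the 2 times was -0.36 (SE 0.09, edgeR adjusted p = 0.261), which did not pass the threshold, and the adjusted p lay between 0.0706 and 0.458 over its alternatives. For IF16 it was -0.18 (SE 0.09, edgeR adjusted p = 0.691). Of the 10 genes 0 were called in either test of the difference between times, where 0.0474% of 16877 genes were called for IF16 and 0.0119% for EOD. At an unadjusted p under 0.05 stood 1 and 2 of the 10, against 7.21% and 10.3% of all genes. By mean level AL-R, at 303.0 CPM, was the highest of the 6 groups, and AL, at 252.8 CPM ± 17.7, the lowest.

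Summed levels of other cell markers are given beside this difference. The 6 oligodendrocyte genes summed to between 1320 and 1549 FPKM in EOD-R and between 1200 and 1296 in AL-R, with none at 0 and 0 of 6 called. The 6 Bergmann glia and astrocyte genes summed to between 840.3 and 874.4 FPKM against 749.7 to 840.9, with 0 of 6 called, and the 5 red blood cell genes to between 19.9 and 34.2 against 11.9 to 153.0, with 0 of 5 called. The sums of the last 2 lists overlapped between the groups, and those of the oligodendrocyte genes did not. The 10 granule cell genes summed to between 1855 and 2044 FPKM in EOD-R and between 1942 and 2032 in AL-R, and their median log2 fold change was -0.03. The part of other cells in the Kndc1 difference was not tested. The length gradients of EOD-R, from -0.03 to 0.009, overlapped those of AL-R.

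A further pair of genes had EOD-R libraries clear of AL-R without passing the threshold, so that 3 of 10 genes did not overlap between these groups, against 1.87% of all genes. Slc17a7 was at 883.9, 837.9, 833.2, 837.7 and 861.0 CPM in EOD-R and at 893.1, 884.2, 897.6, 902.0 and 937.8 in AL-R, a gap of less than 1 CPM between the groups. The log2 fold change was -0.08 (SE 0.03, edgeR adjusted p = 0.446). Pax6 was higher, at 135.1, 128.0, 125.3, 127.0 and 130.0 CPM against 121.8, 123.9, 124.7, 120.3 and 121.9, with a log2 fold change of 0.08 (SE 0.03, edgeR adjusted p = 0.457). Both differences were small, and these were the 2 genes of the 10 with the lowest spread after refeeding. The within-group SD of Pax6 was 0.04 on the log2 CPM scale, lower than in all but 2.46% of 4871 genes, and that of Slc17a7 was also 0.04, with 6.55% lower. Pax6 in IF16-R, at 134.4, 128.5, 131.7, 132.6 and 124.5 CPM, had a similar log2 fold change of 0.09 (SE 0.03, edgeR adjusted p = 0.349), with 1 library inside the AL-R range. Kndc1 was the 1 gene of 10 that did not overlap in IF16-R against AL-R, where 2.18% of all genes did not.

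The promoter windows printed above thus belong to a gene called lower in EOD-R than in AL-R, a gene with lower values and a gene with higher values there. The other 7 genes overlapped between refed groups and controls, with log2 fold changes from -0.06 to 0.02 in EOD-R and from -0.04 to 0.08 in IF16-R. Zic1 had the highest of these, 0.08 in IF16-R (SE 0.03, edgeR adjusted p = 0.456), at 1316 CPM ± 27.7 against 1247 ± 37.5, in the comparison where the length gradient also separates the groups. It was lower in EOD-R than in IF16-R by a log2 difference of -0.10 (SE 0.03, edgeR adjusted p = 0.307). Etv1, so variable at 6 months, had a within-group SD of 0.12 after refeeding and levels of 291.2 CPM ± 19.3, 304.9 ± 25.9 and 279.0 ± 25.7 in AL-R, IF16-R and EOD-R. Cbln1 lay at 1456 ± 99.9, 1422 ± 105.9 and 1444 ± 113.1 CPM, and Fat2 at 763.4 ± 31.7, 774.0 ± 27.7 and 773.3 ± 53.6.

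**Figure D4:**
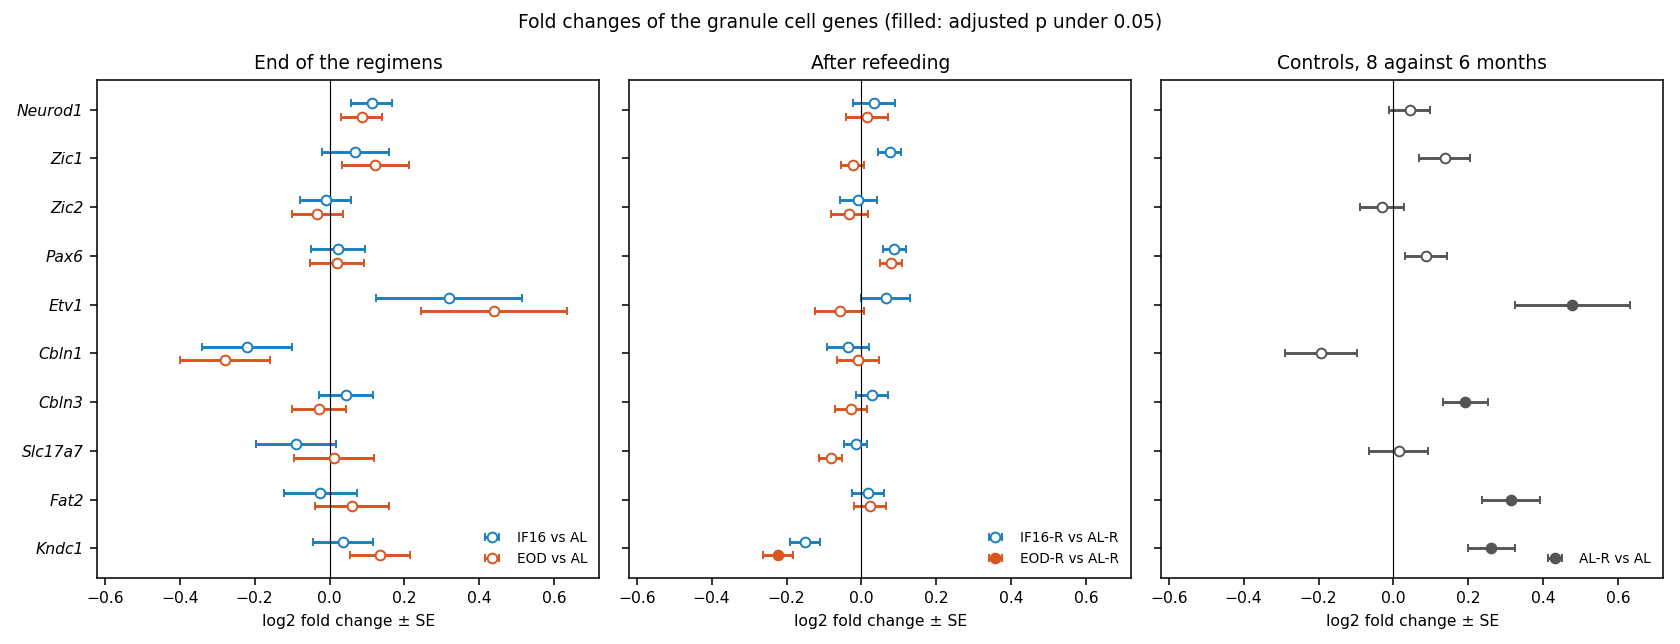
Log2 fold changes with their SE (x axes) of the 10 granule cell genes at the end of the regimens, after refeeding and between the control groups. Filled points passed an adjusted p under 0.05, which holds for Kndc1 in EOD-R against AL-R and for Etv1, Cbln3, Fat2 and Kndc1 in AL-R against AL.

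Between the ad libitum groups, 4 of the 10 genes were higher in AL-R than in AL: Kndc1, Fat2, Cbln3 and Etv1. Here age, the cohort of mice and the deposited table go together and cannot be told apart, and 23.9% of 16877 genes were called in this comparison (40.0% at an unadjusted p under 0.05, the same 4 of the 10). Fat2 was at 802.6, 788.9, 747.4, 752.6 and 725.3 CPM in AL-R and at 660.8, 672.3, 653.7, 512.4 and 571.4 in AL, without overlap. Its log2 fold change was 0.31 (SE 0.08, edgeR adjusted p = 0.00951), and that of Kndc1, also without overlap, was 0.26 (SE 0.06, edgeR adjusted p = 0.00842). Such a lack of overlap was seen for 9.72% of all genes. Cbln3 was at 1571, 1698, 1701, 1826 and 1658 CPM in AL-R and at 1457, 1569, 1608, 1376 and 1388 in AL, with 1 AL-R library inside the AL range. Its log2 fold change was 0.19 (SE 0.06, edgeR adjusted p = 0.0253), and that of Etv1 was 0.48 (SE 0.15, edgeR adjusted p = 0.0284).

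None of the 4 calls was kept with the length gradient as a covariate, without the 3 libraries of lowest gradient, or with the AL and AL-R libraries fitted alone. With the groups alone the log2 fold changes were the same to 2 decimals, at 0.26 for Kndc1, 0.31 for Fat2, 0.19 for Cbln3 and 0.48 for Etv1, and the adjusted p lay between 0.0571 and 0.101. With the length gradient as a covariate they were 0.13 (SE 0.05), 0.16 (SE 0.07), 0.14 (SE 0.07) and 0.06 (SE 0.07) in the same order, and without the 3 libraries 0.21 (SE 0.06), 0.21 (SE 0.08), 0.14 (SE 0.06) and 0.21 (SE 0.11). Kndc1 stayed called in all 10 fits that left out 1 library, Fat2 in 9 of them, and Cbln3 and Etv1 in 6 each. Leaving out AL replicate 4 kept 1 call, and leaving out AL replicate 5 or AL-R replicate 2 kept 2. The other 6 genes did not pass the threshold, among them Cbln1 at -0.19 (SE 0.10, edgeR adjusted p = 0.129) and Slc17a7 at 0.01 (SE 0.08, edgeR adjusted p = 0.916). Oligodendrocyte genes, with sums from 1356 to 1563 FPKM in AL and from 1200 to 1296 in AL-R, had 3 of 6 called lower in AL-R, and red blood cell genes, whose sums overlapped between these groups, had 3 of 5 called higher. Choroid plexus genes, at a median sum of 1659 FPKM in AL (24.0 to 3335) and 23.2 FPKM in AL-R (21.7 to 1582), had 0 of 10 called, and with their level as a covariate Kndc1 and Fat2 were still called and Cbln3 (edgeR adjusted p = 0.079) and Etv1 (edgeR adjusted p = 0.108) were not. Of the other neuronal lists, 3 of 7 Purkinje cell genes and 3 of 6 molecular layer interneuron and Golgi cell genes were called higher, with 0 lower. Their median log2 fold changes were 0.11 and 0.27, against 0.11 for the 10 granule cell genes. Of 2 unipolar brush cell genes 0 were called, at a median of -0.35. The part of oligodendrocytes, blood and other neurons in the differences of the granule cell genes was not tested.

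Cbln1 and Cbln3 form secreted complexes together, so the ratio of their FPKM was taken within each library, where no scaling of libraries enters. The ratio of Cbln3 to Cbln1 was 0.530, 0.468, 0.501, 0.382 and 0.353 in the AL libraries. It was 0.398, 0.520, 0.598, 0.598 and 0.577 in IF16, and 0.540, 0.542, 0.526, 0.540 and 0.469 in EOD. The AL libraries reached lower values, AL replicates 4 and 5 and IF16 replicate 1 were the 3 lowest, and the groups overlapped. The mean log2 ratio differed from AL by 0.24 in EOD (two-sided exact permutation p = 0.0714, adjusted p = 0.571 over 12 tests) and by 0.27 in IF16 (exact permutation p = 0.143, adjusted p = 0.571). The smallest p this design allows is 0.0079. After refeeding the mean ratio was 0.577 ± 0.0585 (SD, n = 5) in AL-R, while IF16-R had 0.602 ± 0.0365 and EOD-R had 0.567 ± 0.0304, and no difference passed the threshold.

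The ratio of Slc17a7 to Slc17a6, the vesicular glutamate transporter VGLUT2 of climbing fibres and some mossy fibres, had a median of 79.6 in AL (range 18.6 to 107.0), of 72.3 in IF16 (range 45.9 to 101.8) and of 83.1 in EOD (range 70.6 to 101.9). AL replicate 1 was the lowest library of the 15. The ratio compares RNA in the tissue piece and does not measure these fibres. Which cells gave the Slc17a6 RNA was not tested. The means after refeeding were 85.4 ± 5.36 (SD, n = 5) for AL-R, 81.9 ± 12.4 for IF16-R and 83.5 ± 6.72 for EOD-R. Over the 6 comparisons within tables the adjusted p of this ratio lay between 0.847 and 0.865 (exact permutation test).

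The 10 genes did not move as a unit from library to library. Over the 45 pairs of genes, the median Pearson r of log2 CPM was 0.277 at 6 months (n = 15 libraries), with 32 positive pairs, and 0.098 after refeeding, with 28 positive pairs. All points of such an r share their library's depth, tissue piece and length gradient. The extremes at 6 months were Zic1 with Etv1 at 0.773 and Etv1 with Cbln1 at -0.865, the latter being genes with opposite relations to the gradient. After refeeding they were Zic1 with Etv1 at 0.714 and Neurod1 with Cbln1 at -0.827. The genes most like the mean of the 10 across the 15 libraries at 6 months were Camkk2 (r = 0.903), Rnf123 (r = 0.896), Ppp2r2c (r = 0.893), Brd2 (r = 0.882) and Mical3 (r = 0.881). After refeeding they were Zc3h4 (r = 0.844), Rexo1 (r = 0.836), Ccdc97 (r = 0.834), Cnnm1 (r = 0.832) and Mcf2l (r = 0.83), so that neither list shared a gene with the other. The single gene of the 10 closest to their mean was Zic1 at 6 months (r = 0.843) and Slc17a7 after refeeding (r = 0.718), and Cbln1 had r = -0.071 and 0.249.

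Other genes of granule neurons were read from 3 lists. Of 20 further granule neuron genes, all tested, 0 were called in any of the 6 comparisons within tables. The highest by mean level were the calcium-binding protein Calb2 at 281.2 FPKM and Gabra6, the GABA-A receptor subunit typical of granule cells, at 213.0 FPKM. The median log2 fold change of the 20 genes was 0.11 in EOD against AL, where that of all genes was -0.02. It lay between -0.01 and 0.01 in both comparisons with AL-R. In EOD against AL 5 of the 20 were higher and 3 lower at an unadjusted p under 0.05 (edgeR), against 14.4% of all genes. The median there was not computed without the 3 libraries of lowest gradient. In AL-R against AL, age, cohort and table go together and 23.9% of all genes were called. There 5 of 20 were called higher, namely Reln (0.41, SE 0.08), Tiam1 (0.39, SE 0.09), Chn2 (0.37, SE 0.07), Cacna1a (0.31, SE 0.08) and Rbfox3 (0.23, SE 0.06). Calb2 (-0.30, SE 0.10) and Gabrd (-0.26, SE 0.08) were called lower. Of these 7 calls 3 were kept with the length gradient as a covariate, 2 without the 3 libraries of lowest gradient and 0 with the groups of the comparison alone. All calls kept in these fits were of higher genes. Calb2 was called in 5 and Gabrd in 7 of the 10 fits that left out 1 library. Neither was called with the length gradient or the choroid plexus level as a covariate.

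The second list was drawn up for the cerebellin family and the parallel fibre synapse. It also held genes of other inputs, such as Slc17a6, given above to climbing and some mossy fibres. Its 13 genes were all found, and 12 of them were tested in the table after refeeding. Of these 0 were called in the 6 comparisons within tables, and the median log2 fold change was -0.13 in IF16 and 0.04 in EOD against AL. Highest by level were Nrxn2, a neurexin of the kind that binds cerebellins, at 110.4 FPKM, and Homer3, a postsynaptic scaffold of Purkinje cells, at 101.8 FPKM. In AL-R against AL, with the same 23.9% of all genes called, 6 of 13 were called higher, among them Shank1 (0.58, SE 0.20), Adgrb3 (0.22, SE 0.08) and Nrxn2 (0.20, SE 0.07). Cbln2 (-3.31, SE 0.65), Cbln4 (-0.97, SE 0.28), Slc17a6 (-0.75, SE 0.24) and C1ql1 (-0.34, SE 0.11) were called lower. With the length gradient as a covariate 0 of the 6 higher calls and, of the lower, those of Cbln2 and Slc17a6 were kept. The count of higher genes was also 0 with the choroid plexus covariate, with the groups alone, without the 3 libraries of lowest gradient and without AL replicate 4 or AL replicate 5 alone, and it was 2 without AL-R replicate 2 or 3 and 3 without AL-R replicate 1. With the groups alone 0 of the 4 lower calls were kept. Cbln2 and Cbln4 were low throughout, at means of 0.309 and 0.471 FPKM, while Cbln2 reached 3.09 FPKM and Slc17a6 13.5 FPKM in AL replicate 1. Without that library Slc17a6 and Cbln4 were not called.

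The third list held 12 genes of granule cell precursors and their migration, of which 11 passed the filter. Atoh1, the factor that defines the precursors, did not pass it, at a mean of 0.0024 FPKM, and the proliferation gene Mki67 was at 0.032 FPKM. Of the 11, 0 were called in the comparisons within tables, and the median log2 fold change was -0.17 in IF16 and -0.05 in EOD against AL. The adhesion protein Cntn2, at 63.7 FPKM, and the hedgehog co-receptor Boc, at 28.3 FPKM, were the highest by level. In AL-R against AL, where age, cohort and table go together, 2 of 11 were called higher, against 23.9% of all genes called. These were Ptch1, the hedgehog receptor, by 0.77 (SE 0.26) and Cntn2 by 0.20 (SE 0.05) on the log2 scale. Neither was called with the length gradient as a covariate, with the groups alone or without the 3 libraries of lowest gradient. Ptch1 was also not called with the choroid plexus covariate, with the replicate block, or without AL replicate 4 or 5 or AL-R replicate 2, 3 or 5.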

How the data were processed

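RNA-seq of 30 libraries was used, and 12 chromatin immunoprecipitation and input samples were not analysed here. Per the file headers, 2 deposited tables of 15 libraries hold raw read counts and FPKM for each gene. The FPKM the authors deposited were recomputed from the counts, gene lengths and library totals to within a relative 4.97e-12 (genes of 10 counts or more), so they carry no other scaling. STAR 2.5, HTSeq 0.6.1 and mm10 are named in the submitters' processing notes. Strand handling and annotation release are not given in the sources used here. Total counts per library ran from 26799825 to 36167435, so counting error is small beside the spread between libraries. In 60 pairs of libraries of one group the chi-square statistic was between 4.26 and 134.5 per degree of freedom, so no pair agreed within sampling noise.

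Counts were fitted with edgeR 4.0.16 in R 4.3.3 (quasi-likelihood test, TMM, filterByExpr by group), with Benjamini-Hochberg adjustment over all genes tested and calls at an adjusted p under 0.05. One fit held each table (16577 and 16444 genes) and one held all 30 libraries (16877 genes), which gave AL-R against AL and the differences between times. Standard errors were taken from the fold change and its F statistic. Tested on simulated data, the fit recovered 173 of 200 genes changed 2-fold for IF16 against AL (16577 genes) and 178 of 200 for IF16-R against AL-R (16444 genes). False calls numbered 7 and 9. The simulation held only 2-fold changes and no length gradient, so it does not show how often smaller changes would be called. The printed CPM are TMM-scaled over the 30 libraries. Log2 CPM used a prior count of 2, and correlations were tested with 100000 resamples.

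The 10 genes, the related lists and the cell type markers were chosen with earlier results of these data known. Named besides the 10 are, from the related lists, genes called in any comparison and the 2 highest by mean FPKM, genes that overlap one of the 10, and the 5 genes most like their mean in each table, with pseudogenes and unnamed models left out. Values of some genes of the related lists are not reported here. Summed levels of marker lists whose sums are not given above were as follows over the 30 libraries. Unipolar brush cells ranged from 4.91 to 27.6 FPKM, and molecular layer interneurons and Golgi cells from 853.8 to 1400 FPKM. Microglia ranged from 38.7 to 65.4 FPKM and endothelium from 87.5 to 146.2 FPKM. Alternatives were DESeq2 1.42.0, RLE scaling, no filter, a mean of at least 1 CPM, the length gradient or choroid plexus level as a covariate, a replicate block, the compared groups alone, and leaving out each library in turn.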

Additional observations from a re-analysis of the deposited data

Results flagged for a closer look

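Over 72 groups of 5 libraries, a test for a library far from the others of its group (Dixon's, critical value 0.71) picked 2, and chance picks about 5% of groups. Zic2 in AL-R was lowest in replicate 2, at 356.0 CPM, where the other 4 libraries lay between 392.0 and 400.7 CPM. The ratio of Cbln3 to Cbln1 in EOD was lowest in replicate 5, at 0.469, where the others lay between 0.526 and 0.542.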

How the results depend on the processing

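Over the 90 results of single granule cell genes (10 genes in 9 comparisons), 1880 values were computed under alternatives. Of these, 1844 kept their side of the threshold, 33 lost a call, 3 gained one and 0 called values changed sign. In 129 values of 43 results the sign changed with neither value called, and the largest of these results was 0.195 in absolute log2 fold change. The number of the 10 genes called moved as follows. In IF16-R against AL-R it was 1 with DESeq2 in place of 0. In EOD-R against AL-R it was 0 with the length gradient as a covariate in place of 1, and 0 to 1 when libraries were left out one at a time. In AL-R against AL it was 0 with the length gradient as a covariate, 2 with the choroid plexus level as a covariate, 0 with the groups of the comparison alone and 0 without the 3 libraries of lowest gradient in place of 4, and 1 to 5 when libraries were left out one at a time. Beyond fewer samples in the last cases, the cause was not tested. The log2 ratio of Cbln3 to Cbln1 differed by 0.19 to 0.38 in IF16 against AL and by 0.16 to 0.31 in EOD against AL when libraries were left out one at a time. It reached an unadjusted two-sided exact permutation p of 0.0317 at 0.3754 without IF16 replicate 1, at 0.2829 without EOD replicate 5 and at 0.3104 without AL replicate 1.

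Counts over all genes moved further: DESeq2 called 96, 128, 1, 103, 79 and 121 genes in the 6 comparisons within tables, where edgeR called 8, 11, 0, 28, 7 and 3, and AL-R against AL gave 28 with the 2 groups alone in place of 4030. At 6 months 3 of 15 same-numbered pairs had correlated deviations over 0.1, with a mean r of -0.07 against 0.02 for other numbers. There 0 of 15 libraries correlated best with their own number. After refeeding 11 of 15 pairs did so, with a mean r of 0.19 against -0.04, and 8 of 15 libraries correlated best with their own number. The main fits leave the replicate number out, and whether same-numbered libraries share a source was not tested. A replicate block kept the call of Kndc1 in EOD-R against AL-R at -0.22 (edgeR adjusted p = 0.0183) and changed no count of the 10 genes called. Over all genes it gave 5, 4, 0, 95, 45 and 40 calls in the 6 comparisons, 3258 in AL-R against AL, and 11 and 10 in the tests of the difference between times.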
